A study of Rattus norvegicus with 20 samples.

Results

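The series holds 4 miRNAs best known from cells other than germ cells, and they were followed here through every array as a check of other cells in the sorted fractions. Both arms of the endothelial precursor miR-126a, rno-miR-126a-3p and rno-miR-126a-5p, were set against rno-miR-133b-3p and rno-miR-1-5p of the muscle precursors miR-133b and miR-1. The members are picked out by name, as 4 of the 677 rat miRNAs on the array. All 4 were among the 217 miRNAs tested, which the scanner software found on every array of 1 or more groups. The array's rat prefix is left out of the names below.

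The samples came from male Sprague-Dawley rats given 6 mg/kg cyclophosphamide, an alkylating drug, or saline by gavage, on 6 days of each of 4 weeks. The labels give no age and no genetic modification. From each treatment there are 5 arrays of pachytene spermatocytes, which are in meiotic prophase, and 5 of round spermatids, the haploid product of meiosis, giving 4 groups. Both were collected as fractions sedimented at unit gravity (STA-PUT), which part cells by size, so a fraction can hold other cells of similar sedimentation, and RNA of the whole fraction was measured. The number in each label is taken as that of the rat. Of the cyclophosphamide pachytene rats, 2 carry the number 16 and a year tells them apart, so they appear below as earlier and later rat 16. Spread between rats is what the p-values measure, as far as these numbers mark separate animals and signals lie above the floor described below.

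miRNAs are short RNAs that pair with messages mainly through their seed, bases 2 to 8, and lower the output of those messages. miR-126 is carried within Egfl7, a gene of the endothelium, and its 3p arm is among the most abundant miRNAs of blood vessel lining, where it supports growth factor signalling. miR-1 and miR-133 are made together in heart and skeletal muscle and are called myomiRs; miR-1 favours muscle differentiation and miR-133 is known for control of myoblast growth. In muscle the 3p arm of miR-1 is the abundant guide strand, and the 5p arm measured here is the passenger strand. In the testis the tubule wall holds smooth-muscle-like peritubular cells, and the tissue between tubules holds capillaries.

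The mature sequences are shown because they set which miRNAs a probe could confuse. They were taken from a RefSeq table of the rat assembly GRCr8, in which 4 of the 4 members were found, and are written 5′ to 3′ with the seed in capitals. miR-133a-3p, miR-1-3p and miR-206-3p are shown beside the members as their closest relatives on the array.
rno-miR-126a-3p: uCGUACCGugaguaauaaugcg
rno-miR-126a-5p: cAUUAUUAcuuuugguacgcg
rno-miR-133b-3p: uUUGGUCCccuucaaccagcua
rno-miR-133a-3p: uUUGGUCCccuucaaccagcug
rno-miR-1-5p: gCACAUACuucuuuauguaccc
rno-miR-1-3p: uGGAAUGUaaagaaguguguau
rno-miR-206-3p: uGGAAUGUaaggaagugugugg
The miR-126a arms lie on the plus strand at chr3:29813219-29813240 (3p) and chr3:29813182-29813202 (5p), within Egfl7. miR-133b-3p lies on the plus strand at chr9:30594629-30594650, within the RNA gene LOC120094648, which also holds miR-206. miR-1-5p lies on the minus strand at chr18:2160380-2160401, within Mib1, whose span also holds the miR-133a-3p sequence shown. miR-133b-3p differs from miR-133a-3p by A22G alone (positions from the 5′ end, the miR-133b base first), outside the shared seed, so RNA of either could be read by a probe for the other. No other mature miRNA in the table carried the seed of miR-126a-3p, of miR-126a-5p or of miR-1-5p. miR-126b, the opposite-strand product at the miR-126a locus, overlaps the 5p arm by 17 bases and the 3p arm by 0.

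The measured quantity is a spot signal in array units, scaled so that the upper quartile of 2176 spots bright on every array is equal across arrays. For tests each spot signal below a floor of 12.17, the typical lowest signal well above background, was raised to it, and log2 was taken (the floor is 3.61). The signals below are averages over the spots of the brightest probe before that floor. Detected means flagged so by the scanner software. Between 181 and 281 miRNAs were detected per array. Precision is limited by how many arrays there are. The 4 arrays of slide 3 carried a later scan date than the other 16, and all 4 were of round spermatids, 3 saline and 1 cyclophosphamide. Of the 8 germ cell miRNAs counted below, both arms of miR-34b and of miR-34c, and miR-449a-5p, were each detected on 20 of 20 arrays. miR-449a-3p was detected on 10 arrays, all of pachytene spermatocytes, miR-449c-5p on 2 and miR-449c-3p on 0.

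Of the endothelial pair, miR-126a-3p was detected on all 20 arrays, with higher signals in the pachytene fractions. In saline pachytene spermatocytes its signal was 64.8, 115, 251, 84.9 and 136 in rats 13, 16, 25, 26 and 28. In cyclophosphamide pachytene spermatocytes it was 104, 180.0, 76.5, 92.6 and 74.1 in rats 7 and 15, the earlier and later rat 16, and rat 29. Rat 25 of the saline group and rat 15 of the cyclophosphamide group stood highest. In saline round spermatids it was 78.1, 62.4, 69.3, 106 and 48.7 in rats 15, 16, 17, 25 and 28, and in cyclophosphamide round spermatids 51.1, 43.8, 71.8, 50.1 and 69.5 in rats 14, 15, 16, 25 and 26. The saline fractions overlapped: 2 spermatid arrays lay below every pachytene array and 3 pachytene arrays above every spermatid array. The cyclophosphamide fractions did not, all 5 pachytene arrays lying above all 5 spermatid arrays. How often the fractions lay fully apart over all tested miRNAs was not counted, here or for the other members. Limma called 48.4% of all tested miRNAs between the fractions in saline and 53.9% in cyclophosphamide rats. By mean log2 signal the order was saline pachytene (6.86 ± 0.74, SD, n = 5), cyclophosphamide pachytene (6.63 ± 0.52), saline spermatid (6.14 ± 0.41) and cyclophosphamide spermatid (5.80 ± 0.32), and no pair of neighbours in it differed by more than the larger of their SDs.

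miR-126a-5p, the other arm of the same precursor, was near background. It was detected on 3 of 5 saline and 5 of 5 cyclophosphamide pachytene arrays, and on 1 of 5 saline and 0 of 5 cyclophosphamide spermatid arrays. Its signal was 5.61, 9.24, 34.3, 10.2 and 16.9 in saline pachytene rats 13, 16, 25, 26 and 28. It was 9.64, 16.1, 9.77, 11.1 and 9.13 in the cyclophosphamide pachytene rats in the order above, where rat 15 again stood highest. The spermatid signals ran from 4.90 through a median of 6.84 to 12.0 in saline rats and from 4.11 through 5.76 to 7.21 in cyclophosphamide rats. The cyclophosphamide fractions did not overlap, while the saline fractions did. Mean log2 signals were 4.00 ± 0.64 (SD, n = 5), 3.69 ± 0.17, 3.62 ± 0.03 and 3.61 ± 0 in the same group order as for the 3p arm, with no neighbours further apart than the larger SD. In cyclophosphamide spermatids every value lay at the floor.

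The muscle miRNA miR-133b-3p showed the opposite placement. Its signal was 29.9, 38.8, 41.2, 44.8 and 36.9 in saline round spermatids of rats 15, 16, 17, 25 and 28. In cyclophosphamide round spermatids of rats 14, 15, 16, 25 and 26 it was 39.9, 26.4, 51.1, 36.7 and 25.4. It was detected on all 10 of these arrays. Pachytene signals were 12.0, 6.84, 14.8, 7.54 and 11.4955 in saline rats 13, 16, 25, 26 and 28, and 11.7, 9.96, 9.44, 5.14 and 8.11 in cyclophosphamide rats 7, 15, earlier 16, later 16 and 29. It was detected on 4 of 5 arrays in each pachytene group, and every spermatid array lay above every pachytene array in both treatments. The share of all tested miRNAs that separated in this way was not counted. By mean log2 signal the order was saline spermatid (5.24 ± 0.22, SD, n = 5), cyclophosphamide spermatid (5.11 ± 0.43), saline pachytene (3.67 ± 0.12) and cyclophosphamide pachytene (3.63 ± 0.04). Only the step from cyclophosphamide spermatid to saline pachytene was wider than the SDs of its groups.

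miR-1-5p, the passenger arm of miR-1, was flagged as detected on all 20 arrays yet stayed close to the floor. No spot of the probe used was well above background in saline pachytene rats 13 and 25 or cyclophosphamide pachytene rats 7, later 16 and 29. The same held in cyclophosphamide spermatid rats 14 and 16. The miR-1-5p signal was 10.6, 19.5, 15.3, 19.5 and 15.2 in saline round spermatids of rats 15, 16, 17, 25 and 28. It was 12.5, 14.6, 10.8, 15.5 and 25.5 in cyclophosphamide round spermatids of rats 14, 15, 16, 25 and 26. In pachytene spermatocytes it ran from 4.63 through a median of 8.60 to 10.8 in saline rats and from 6.11 through 6.86 to 9.69 in cyclophosphamide rats. The cyclophosphamide fractions did not overlap, whereas the saline fractions did, through spermatid rat 15. Saline spermatids had a mean log2 signal of 4.01 ± 0.25 (SD, n = 5) and cyclophosphamide spermatids one of 3.98 ± 0.40, against 3.62 ± 0.03 and 3.61 ± 0 in pachytene spermatocytes. No neighbours in that order were further apart than the larger SD. On the slide scanned later, spermatid signals of miR-1-5p were 15.2 to 25.5, against 10.6 to 19.5 on slides 1 and 2, and the part of the slide was not tested beyond the fits below.

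**Figure D1:**
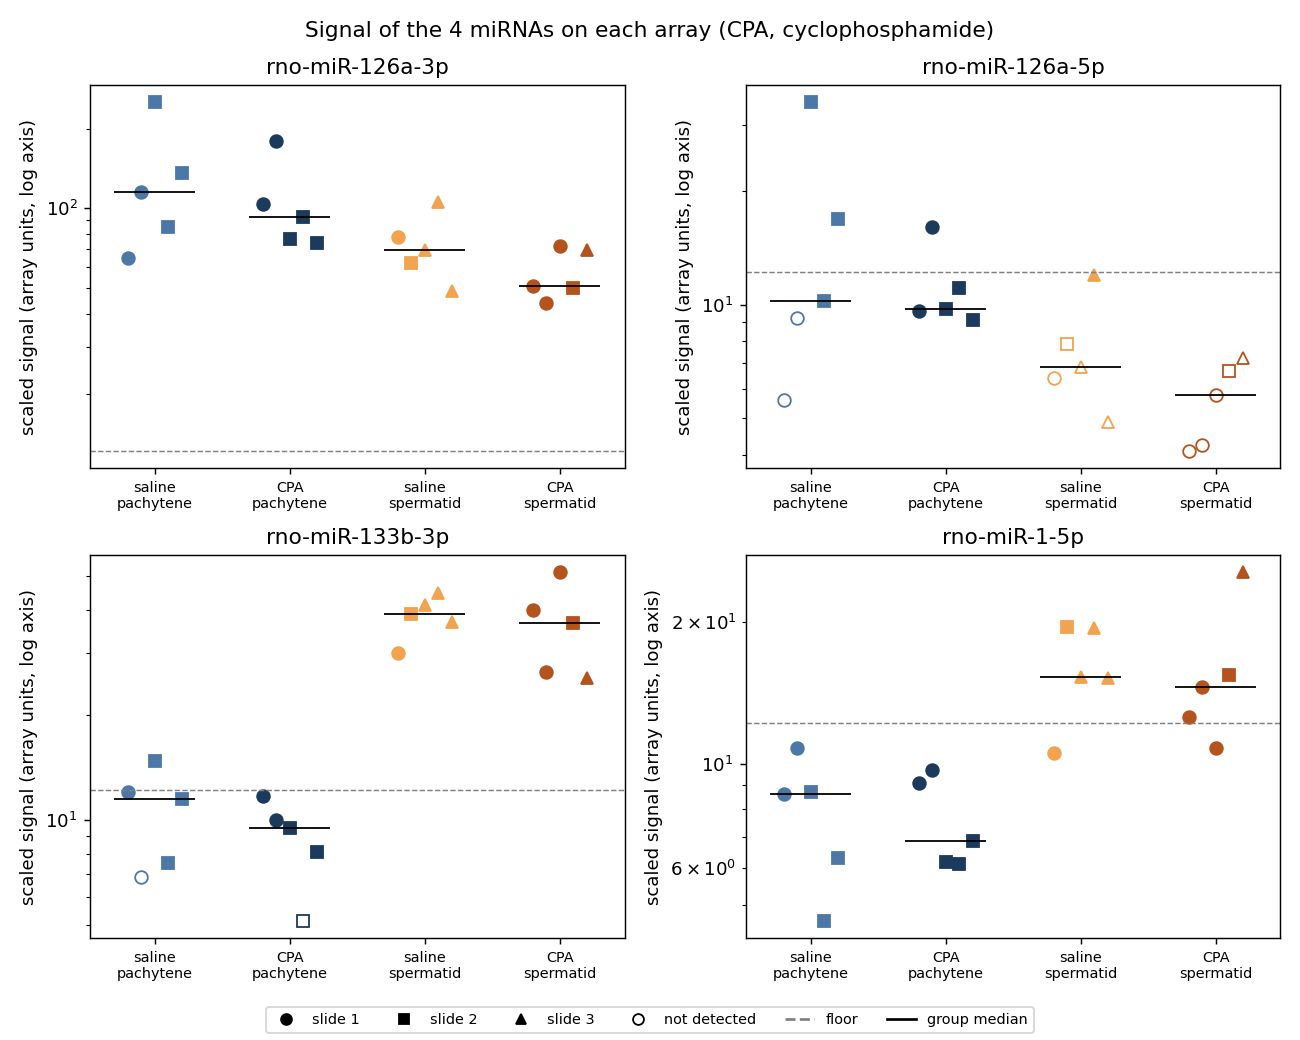
Scaled signal (array units, log axis) of each of the 4 miRNAs on all 20 arrays, by group; symbols mark the slide, open symbols arrays where the miRNA was not detected, bars the group median and the dashed line the floor of 12.17. miR-133b-3p separates the spermatid arrays (25.4 or more) from the pachytene arrays (14.8 or less), and miR-126a-3p overlaps in saline rats (48.7 to 106 in spermatids, 64.8 to 251 in pachytene spermatocytes).

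Round spermatids were compared with pachytene spermatocytes within each treatment, the question being whether the fractions differ in the markers of vessel and muscle. In saline rats both muscle members rose in round spermatids and neither miR-126a arm passed the test. Beside these 2 of 4 members called higher and 0 lower, limma called 48.4% of all tested miRNAs in either direction, 26.3% higher and 22.1% lower. miR-133b-3p was higher by 1.57 ± 0.15 on the log2 scale (SE), 2.97-fold between floored signals, with an adjusted p of 1.15e-07 by limma and a 95% interval from 1.25 to 1.89. It was higher in 5 of 5 spermatid arrays than in any pachytene array. Because miR-133b-3p entered the tests through the spermatid groups alone, its limma p-values between the fractions carry that selection in both treatments. Its pachytene values lay at the floor on 2 of 5 saline and 3 of 5 cyclophosphamide arrays. miR-1-5p was higher by 0.39 ± 0.15, with an adjusted p of 0.0341 by limma and 4 of 5 spermatid arrays above every pachytene array. Its values lay at the floor on 4 of 5 saline pachytene arrays (SD 0.03), so the floor partly sets the spread behind this p. For miR-126a-3p the difference was -0.73 ± 0.31, with an adjusted p of 0.0583 by limma and a 95% interval from -1.37 to -0.08. For miR-126a-5p it was -0.38 ± 0.20, with an adjusted p of 0.129 by limma.

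In cyclophosphamide rats the muscle members rose again and miR-126a-3p fell. Beside these 2 of 4 members higher and 1 lower, limma called 53.9% of all tested miRNAs, 30.9% higher and 23% lower. miR-133b-3p was higher by 1.48 ± 0.15 (SE, log2), 2.78-fold, with an adjusted p of 1.41e-07 by limma and a 95% interval from 1.16 to 1.79. miR-1-5p was higher by 0.37 ± 0.15 (adjusted p = 0.0395 by limma). All 5 cyclophosphamide pachytene values of miR-1-5p lay at the floor (SD 0), so the floor partly sets the spread here too. miR-126a-3p was 1.78-fold lower, a log2 difference of -0.83 ± 0.31, with an adjusted p of 0.0294 by limma and a 95% interval from -1.48 to -0.19. For miR-126a-5p the fitted difference was -0.09 ± 0.20, with an adjusted p of 0.726 by limma. No fold is given for it, since the spots of every cyclophosphamide spermatid array were not well above background and the lowest signal that counts as such exceeded the pachytene mean. In an alternative added after the data were seen, with spots averaged first and a floor of 2, its difference was -0.996 (adjusted p = 0.0222 by limma). With the scanner software's total gene signal, a summary value for each miRNA, in place of spot signals it was -2.39 (adjusted p = 0.00464 by limma) in cyclophosphamide and -1.40 (0.0787) in saline rats. The size for this arm thus depends on the signal measure and the floor. This arm entered the tests through the cyclophosphamide pachytene group alone, the higher group of the cyclophosphamide comparison. Its limma p-values there carry that selection under every setting. In these bulk fractions, fewer cells of a type and less RNA per cell cannot be told apart.

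**Figure D2:**
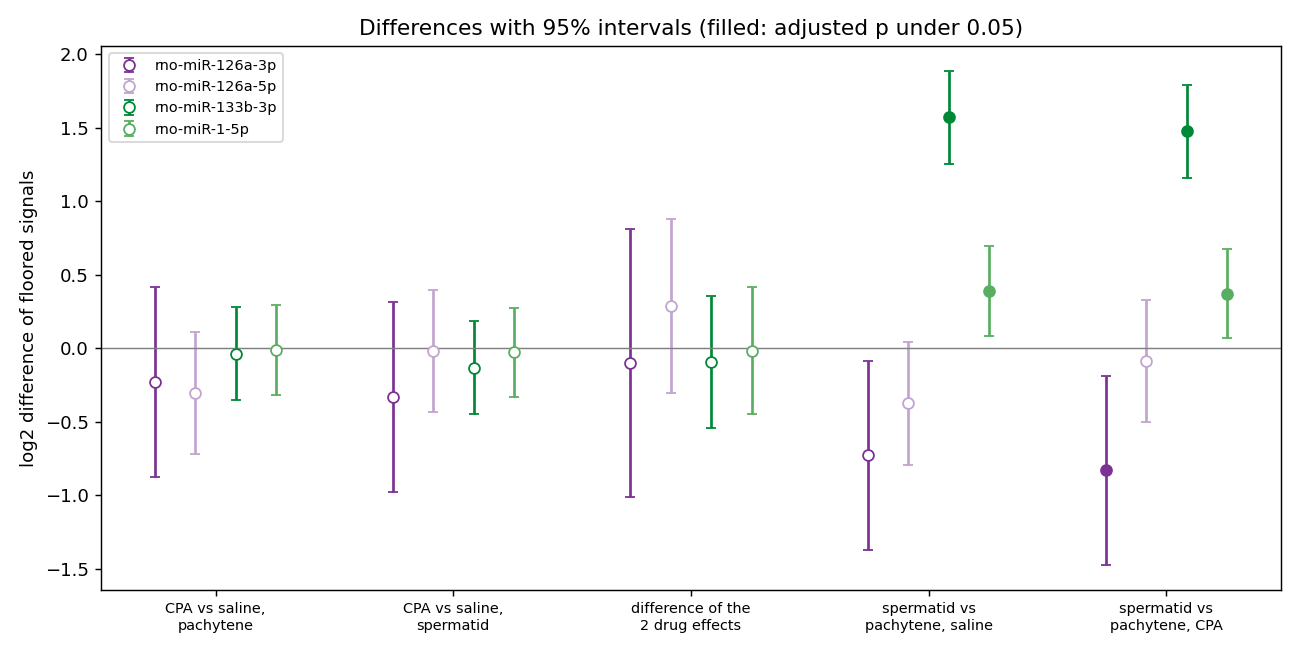
Log2 difference of floored signals with its 95% interval for each of the 4 miRNAs in the 5 comparisons; filled points have an adjusted p under 0.05 by limma. miR-133b-3p stands at 1.57 and 1.48 between round spermatids and pachytene spermatocytes, miR-126a-3p at -0.73 and -0.83, and no treatment value is filled.

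The size and the call of these differences depended on the low signals and on single arrays more for some members than for others. For miR-133b-3p, leaving out each array in turn gave 1.51 to 1.66 in saline and 1.33 to 1.59 in cyclophosphamide rats, called each time. Its second probe, dimmer, gave 0.39 and 0.20 on the floored scale and 1.69 and 1.49 with the floor of 2, where the probe used gave 1.91 and 2.02. With normexp background correction it was 0.95 (adjusted p = 0.0552) and 0.37 (0.715) by limma, where the median of all tested miRNAs stood at 0.44 and -0.06. Blocking on slide gave 1.61 and 1.49, within slide 1 the values were 1.27 and 1.56, and within slide 2 they were 1.57 and 1.59, all called; slide 1 holds 1 saline spermatid array and slide 2 holds 1 spermatid array per treatment, each assumed to vary like the other groups.

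For miR-126a-3p in cyclophosphamide rats the call was lost on leaving out pachytene rat 7 (adjusted p = 0.0507) or rat 15 (0.0913), or spermatid rat 14 (0.0573), rat 15 (0.0725) or rat 25 (0.0584), all by limma. The differences without 1 array ran from -0.94 to -0.62. In saline rats a call was gained without saline pachytene rat 13 (adjusted p = 0.0152) or rat 26 (0.0413), saline spermatid rat 25 (0.0311) or cyclophosphamide pachytene rat 15 (0.0397), with -0.94 to -0.45 over all arrays left out. Within slide 1 the difference was -0.15 in saline and -1.34 in cyclophosphamide rats, and within slide 2 it was -1.19 and -0.69. Blocking on slide gave -0.84 (adjusted p = 0.0786) and -0.89 (0.0327). Its second probe gave -0.76 and -1.01. For miR-126a-5p the block gave -0.36 and -0.04, slide 1 gave -0.00662 and -0.20, and slide 2 gave -0.63 and -0.01.

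For miR-1-5p the slide as a block left 0.16 in saline (adjusted p = 0.355 by limma) and 0.33 in cyclophosphamide rats (0.0309). Slide 1 alone gave 0.02 and 0.15, neither called. Slide 2 alone gave 0.62 and 0.34, each from 1 spermatid array against pachytene arrays that all lie at the floor, so no spread was measured there and no p is given. Without slide 3, chosen after the data were seen, the values were 0.32 (adjusted p = 0.0380) and 0.20 (0.0871). The saline call was lost without saline pachytene rat 13, 25, 26 or 28 or saline spermatid rat 16 or 25 (adjusted p from 0.0554 to 0.0966), with differences of 0.32 to 0.47 over all arrays left out. The cyclophosphamide call was lost without any 1 of the 5 cyclophosphamide pachytene arrays or without spermatid rat 25 or 26 (0.0565 to 0.104). The difference itself was 0.37 without any of those pachytene arrays, 0.38 without rat 25 and 0.20 without rat 26, and ran up to 0.45 over all arrays left out. With the floor of 2 the differences were 1.06 (adjusted p = 0.00105) and 1.02 (0.00151), and the 4 probes of miR-1-5p gave 1.03 to 1.19 and 0.88 to 1.02 there.

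The endothelial and muscle members were then set against each other within each array, as the log2 signal of a miR-126a arm minus that of a muscle member. Such a difference has no meaning as a level between probes, and a factor common to all spots of an array cancels in it where both signals lie above the floor. It was run 10 times, wherever each miRNA was detected throughout 1 or both of the groups compared, and the test was an exact permutation test, two-sided, whose 252 splits allow no p below 0.00794. For miR-126a-3p minus miR-133b-3p the mean went from 3.19 ± 0.65 (SD, n = 5) in pachytene spermatocytes to 0.89 ± 0.41 in round spermatids of saline rats, a change of -2.30 (exact permutation p = 0.00794, adjusted 0.0159). In cyclophosphamide rats it went from 3.001 ± 0.50 to 0.70 ± 0.45, a change of -2.31 with the same p. The fractions did not overlap in either treatment, and the pachytene values rest on the floor for miR-133b-3p. miR-133b-3p entered these tests through the spermatid groups alone, so their p-values carry that selection. For miR-126a-3p minus miR-1-5p the change was -1.12 in saline (exact permutation p = 0.0238, adjusted 0.0397) and -1.20 in cyclophosphamide rats (0.00794, adjusted 0.0159). The saline change lost its call without saline pachytene rat 16, 25 or 28 or saline spermatid rat 16, 17, 25 or 28 (adjusted p from 0.0529 to 0.0794). In pachytene spermatocytes miR-1-5p lay at the floor on 4 of 5 saline and 5 of 5 cyclophosphamide arrays, so its change rests on the floor too. For the 5p arm, in cyclophosphamide rats, the values were -1.56 against miR-133b-3p and -0.46 against miR-1-5p. No p is given for them, since the 5p arm entered through the pachytene group alone and lay at the floor on all 5 spermatid arrays. The balance between the miR-126a arms was not tested, since in no pair of groups were both arms detected on all arrays.

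Treatment was compared within each fraction, the question being whether chronic cyclophosphamide shifts the markers of other cells. None of the 4 members passed the test in either fraction. Limma called 0 of the 217 miRNAs in the pachytene fraction (0%), in the spermatid fraction (0%) and for the difference of the 2 effects (0%), and 1, 5 and 1 had an unadjusted p under 0.05. In pachytene spermatocytes miR-126a-3p differed by -0.23 ± 0.31 (SE, log2), with a 95% interval from -0.87 to 0.41, and miR-126a-5p by -0.31 ± 0.20, with an interval from -0.72 to 0.11. Both had an adjusted p of 1 by limma. Without saline pachytene rat 25, the array highest for both arms, miR-126a-3p stood at 0.05 and miR-126a-5p at -0.03. The muscle members stood at -0.04 ± 0.15 for miR-133b-3p and -0.01 ± 0.15 for miR-1-5p, both mostly at the floor there.

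In round spermatids miR-126a-3p differed by -0.33 ± 0.31, with an interval from -0.98 to 0.31 (adjusted p = 0.850 by limma), and 1 cyclophosphamide array lay below all saline arrays. miR-133b-3p differed by -0.13 ± 0.15, with an interval from -0.45 to 0.18 (adjusted p = 0.854 by limma). miR-126a-5p and miR-1-5p differed by -0.02 ± 0.20 and -0.03 ± 0.15. Within slide 2, where each spermatid group has 1 array and all 6 pachytene arrays lie at the floor, miR-1-5p stood at -0.28, with no spread between replicates to test it against. The saline and cyclophosphamide arrays overlapped for all 4 members in both fractions, and how often this held over all tested miRNAs was not counted. The drug's effect in round spermatids minus that in pachytene spermatocytes was -0.10 ± 0.44 for miR-126a-3p, 0.29 ± 0.28 for miR-126a-5p, -0.10 ± 0.21 for miR-133b-3p and -0.02 ± 0.21 for miR-1-5p, each with an adjusted p of 0.998 by limma. The endothelial minus muscle differences gave no call between treatments either: in round spermatids the change was -0.20 for miR-126a-3p minus miR-133b-3p (exact permutation p = 0.460, adjusted 0.575).

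The 2 arms of miR-126a come from 1 precursor, and across pachytene arrays they went up and down together. Pearson's r was 0.861 over 10 arrays (permutation p = 0.00153, adjusted 0.00306) and Spearman's rho 0.806 (permutation p = 0.00704, adjusted 0.0141), for 2 relations computed. The r was 0.866 for deviations from the means of treatment and slide, 0.976 over the 6 arrays of slide 2, and 0.678 without saline rat 25 and cyclophosphamide rat 15. With the scanner software's total gene signal the relation was not called (r = 0.637, permutation p adjusted 0.0975), and r without 2 arrays was 0.336. Slide 1 held too few pachytene arrays for a value. In round spermatids r was 0.676 (permutation p = 0.0556, adjusted 0.0556) and rho 0.389 (permutation p = 0.290, adjusted 0.290), with the 5p arm detected on 1 of 10 arrays. It was called with normexp (r = 0.919, permutation p adjusted 0.00092) and with the floor of 2 (r = 0.824, permutation p adjusted 0.00365). Without saline rat 25 and cyclophosphamide rat 15, r was 0.03 there, with 8 of the 10 values of the 5p arm at the floor before they were left out. Without the same arrays it was 0.671 with normexp and 0.524 with the floor of 2, so how far the relation rests on them depends on the treatment of low signals.

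The miRNAs whose signals followed each member most closely were taken by Pearson's r of deviations from the group means over the 20 arrays, as a description that includes what arrays share. For miR-126a-3p it was miR-150-5p, known from lymphocytes, at r = 0.947 (0.992 over pachytene and 0.803 over spermatid arrays), then miR-126a-5p at 0.760 and miR-27a-3p at 0.675. The signal of miR-150-5p was 49.5 in saline pachytene rat 25 and 34.1 in cyclophosphamide pachytene rat 15, the same rats that stood highest for miR-126a-3p, and 10.8 to 27.6 on the other pachytene arrays. Without saline pachytene rat 25, r was 0.925, and with slide also taken out 0.975. For miR-126a-5p the closest were miR-150-5p at 0.771, miR-126a-3p at 0.760 and miR-27a-3p at 0.711.

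For miR-133b-3p the closest were miR-143-5p at 0.895, miR-143-3p at 0.738 and let-7b-5p at 0.724. miR-143 is abundant in smooth muscle. Over the 10 spermatid arrays alone r was 0.926 for miR-143-5p and 0.964 for miR-143-3p, and miR-143-5p lay at the floor on all pachytene arrays. The signal of miR-143-3p was lowest among spermatid arrays in cyclophosphamide rats 26 (1675) and 15 (1711), the same rats that were lowest for miR-133b-3p, and highest in cyclophosphamide rat 16 (3296), which was also highest for miR-133b-3p. For miR-1-5p the closest were let-7b-3p at 0.923, miR-409a-3p at 0.867 and miR-2985 at 0.794, none of which stands on a muscle list used here. Cyclophosphamide spermatid rat 26 lay farthest from its group mean for miR-1-5p, and without it these values were 0.837, 0.695 and 0.611.

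**Figure D3:**
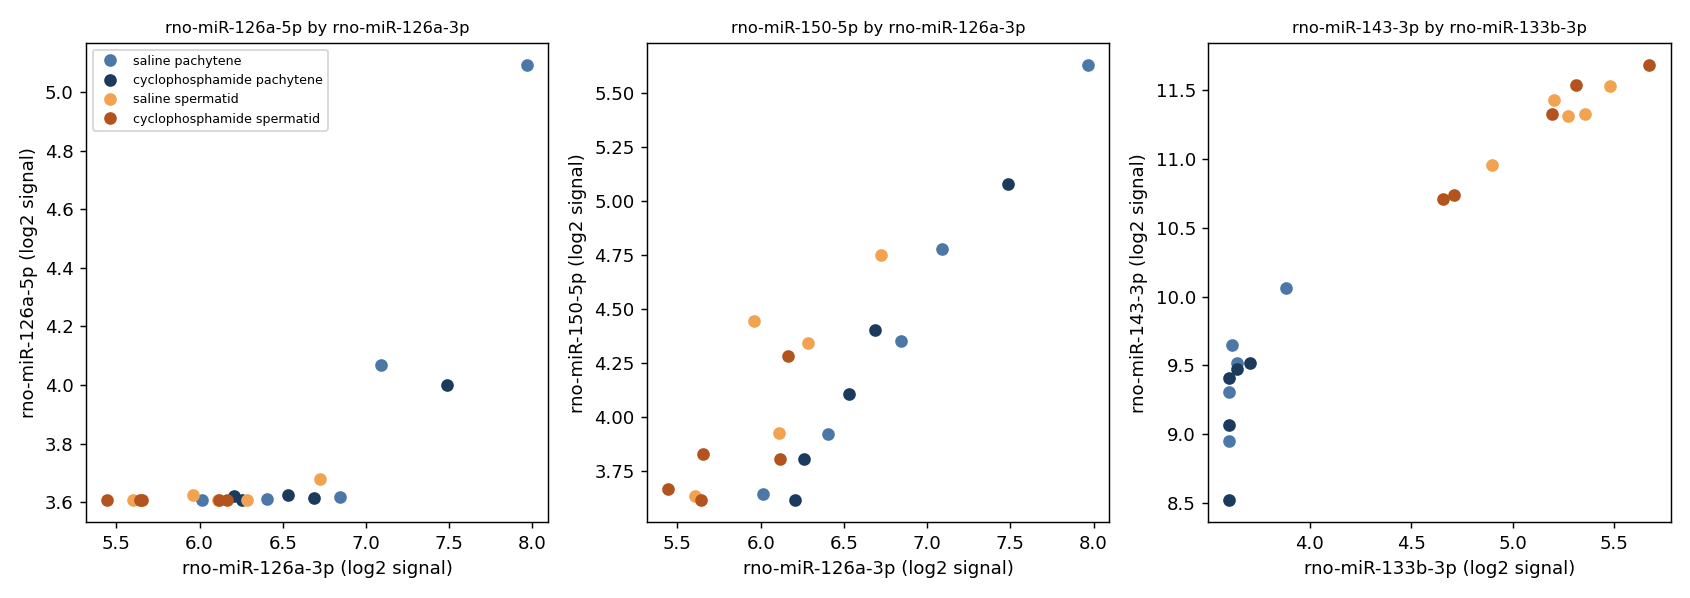
Log2 signal on each of the 20 arrays, coloured by group, of miR-126a-5p (left) and miR-150-5p (middle) by that of miR-126a-3p, and of miR-143-3p by that of miR-133b-3p (right). miR-150-5p follows miR-126a-3p through all groups (r = 0.947 of deviations from group means), miR-126a-5p lies at or near its floor of 3.61 on most arrays, and the spermatid arrays line up for miR-143-3p and miR-133b-3p (r = 0.964).

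Lists of miRNAs known from muscle, vessel and further cells were also counted, members included, with every arm on the array. Of 14 striated muscle miRNAs (miR-1, miR-133a, miR-133b, miR-206, miR-208a, miR-208b and miR-499), 7 were detected on no array and 2, both members, could be tested. The defining muscle strands were near background. miR-1-3p was detected on 2 of 20 arrays with signals from -1.64 to 9.10, miR-133a-3p on 2 with 1.22 to 8.39, and miR-206-3p on 2 with -1.99 to 5.92. miR-133b-5p, the other arm of the miR-133b precursor, was detected on 0 arrays. The summed signal of the list was 29.9 to 50.4 in saline and 32.7 to 45.7 in cyclophosphamide pachytene spermatocytes, and 69.6 to 102.6 and 81.6 to 95.1 in round spermatids. In the endothelial list of 3, miR-126b was detected on 0 arrays, and the summed signal was 70.4 to 285 and 83.3 to 196 in pachytene spermatocytes and 53.6 to 118 and 48.0 to 77.6 in round spermatids. Signals of miR-126b ran from -4.88 to -0.11 and were counted as 0, so this sum is that of the miR-126a arms alone.

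Markers of smooth muscle and of mesenchyme moved with miR-133b-3p between the fractions. All 3 tested of 4 smooth muscle and peritubular miRNAs (miR-143, miR-145) rose in round spermatids in both treatments, with a median log2 difference of 1.81 in saline and 1.76 in cyclophosphamide rats, against 0.02 and 0.06 over all tested miRNAs. Among all tested miRNAs 26.3% and 30.9% were called higher. miR-143-5p entered the tests through the spermatid groups alone and lay at the floor on all pachytene arrays, so its rise carries that selection. miR-145-3p was detected on 0 arrays. The list's summed signal was 540.1 to 1173 and 406 to 808 in saline and cyclophosphamide pachytene spermatocytes, and 2134 to 3286 and 1831 to 3576 in round spermatids. All 3 tested of 4 mesenchymal miRNAs (miR-199a, miR-214) rose too, with medians of 1.58 and 1.73, and miR-214-5p was detected on 0 arrays. Their summed signal was 51.7 to 62.0 and 45.1 to 60.9 in pachytene spermatocytes and 88.4 to 257 and 78.3 to 225 in round spermatids. The part of these cells in the rise of miR-133b-3p and miR-1-5p was not tested.

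Blood and gonadal markers were mixed. Of 10 blood miRNAs, 4 were detected on no array and 4 were tested; 1 rose in saline and 2 in cyclophosphamide rats, and medians were 0.14 and 0.20. Among all tested miRNAs 26.3% and 30.9% were called higher, so 1 of 4 is at the background share. The erythroid miR-451-5p was detected on 1 of 20 arrays and miR-144-3p on 0. The summed signal was 113 to 145.3 and 99.8 to 145.4 in pachytene spermatocytes and 173 to 231 and 176 to 238 in round spermatids. By the rule for naming list members, miR-223-3p, a myeloid miRNA, had the largest difference in saline rats at 2.15 ± 0.15 (SE, log2), ahead of miR-145-5p at 1.88 ± 0.32, with adjusted p of 2.07e-09 and 6.00e-05 by limma. In cyclophosphamide rats miR-143-3p at 2.005 ± 0.23 and miR-223-3p at 1.95 ± 0.15 led, with adjusted p of 4.02e-07 and 5.51e-09 by limma. Their part in the members' differences was not tested. miR-202-3p, a gonad-enriched miRNA, was the 1 tested of 2 Sertoli and Leydig markers and fell, with log2 differences of -1.77 and -1.55. Of 6 tested of 8 germ cell miRNAs (miR-34b, miR-34c, miR-449a, miR-449c), 1 rose and 1 fell in saline rats and 2 rose and 1 fell in cyclophosphamide rats.

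**Figure D4:**
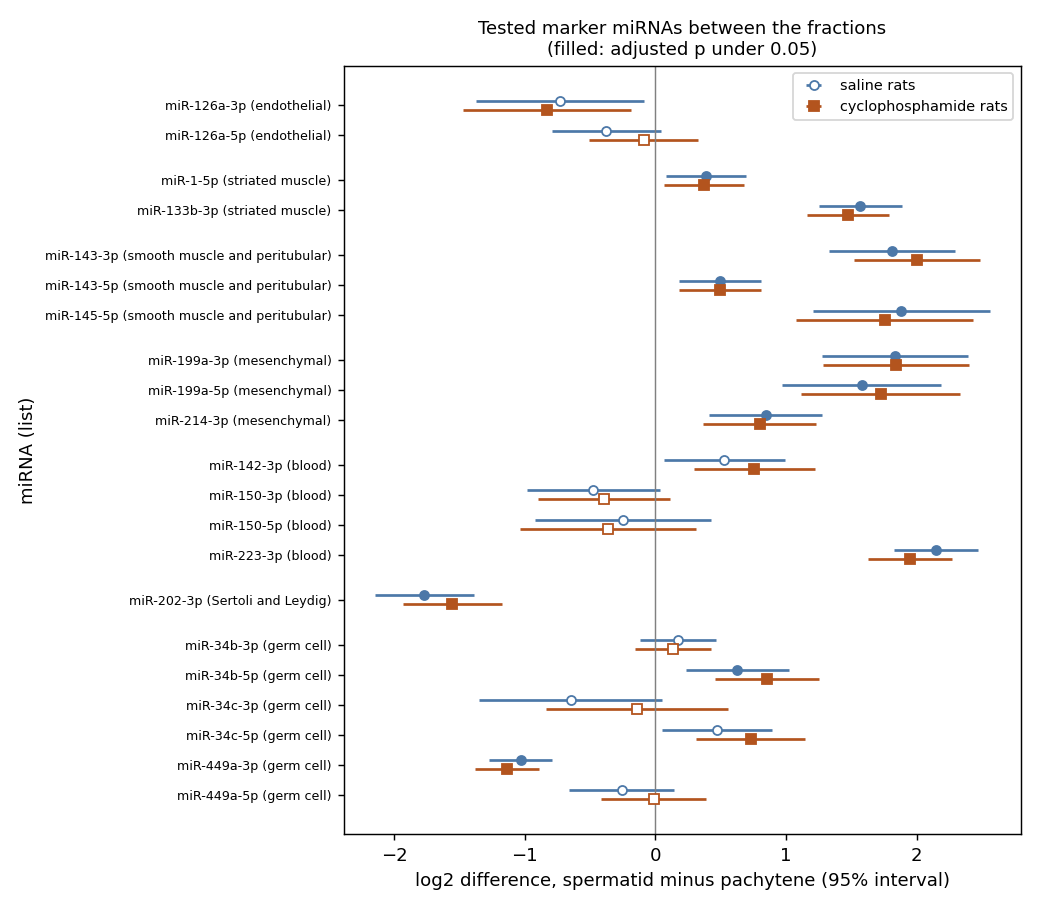
Log2 difference, round spermatids minus pachytene spermatocytes, with 95% intervals, of every tested miRNA on the 7 marker lists, in saline rats (circles) and cyclophosphamide rats (squares); filled points have an adjusted p under 0.05 by limma. The smooth muscle and mesenchymal miRNAs lie on the same side of 0 as miR-133b-3p and miR-1-5p, and both miR-126a arms lie on the other side.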

How the data were processed

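Per the file headers, each deposited scanner file gives linear intensity per spot after background subtraction, with no scaling across arrays. The submitters' processing notes name Agilent Feature Extraction 11.5.1.1. The deposited value table holds log2 values centred per miRNA, with column medians from -0.12 to 0.40 and how it was normalized is not given in the sources used here. It uses older names, so 0 members were matched by name and it was used for counts alone, over 44 tested miRNAs matched by name with r over 0.5 to the scanner values. Control and outlier spots (379 to 635 per array) were left out, and the file of cyclophosphamide spermatid rat 14 holds rounded signals.

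Signals were scaled to each array's 75th percentile over 2176 spots, floored and taken to log2, and spots were averaged per probe. The brightest probe stood for a miRNA. Tests were fitted by limma 3.58.1 (R 4.3.3) as 1 model of 4 group means with 16 residual degrees of freedom, adjusted by Benjamini-Hochberg over 217 miRNAs at 0.05. The fit was tested on simulated data. Correlations used 100000 permutations. The column planned for normexp was replaced by the median spot signal, with an offset of 50.

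The named miRNAs are the 4 members, the 3 closest to each by r, and the 2 list members with the largest difference in each comparison of fractions; others were named after their values were seen. The members and lists were chosen with earlier results of these data known. Rat numbers were checked for pairing across fractions. Rats that share a treatment and a number correlated at 0.07 (saline 16), 0.18 (saline 25), -0.30 (saline 28) and 0.13 (cyclophosphamide 15). For saline 25 and cyclophosphamide 15 the closest spermatid array of their treatment had the same number, and for saline 16 and 28 another. Correlations between cell types cannot settle whether equal numbers mark the same animal. The arrays were treated as unpaired, and a fit with the rat number as a block is given below. Number 16 of the cyclophosphamide rats was not checked, because 2 pachytene rats carry it. The alternatives were other scalings, the total gene signal per miRNA, background correction, filters and floors (one at 0.5 of the value used). Others were probe averages, blocks for slide, scan date and rat, and leaving out each array.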

Additional observations from a re-analysis of the deposited data

How the results depend on the processing

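Between the fractions, miR-126a-3p, miR-133b-3p and miR-1-5p kept their direction under every alternative run. miR-133b-3p was called in 35 of 36 alternatives in each treatment, miR-126a-3p in 10 of 37 in saline and 29 of 37 in cyclophosphamide rats, miR-1-5p in 23 and 20 of 37 (slide 2 alone among them, where its spread is 0), and miR-126a-5p in 1 and 2 of 36. Scaling and the signal measure mattered for miR-126a-3p in saline rats. It was called with the percentile over all spots (-0.98, adjusted p = 0.0130 by limma), quantile normalization (-0.87, 0.0219), no scaling (-1.20, 0.00652) and the total gene signal measure (-0.79, 0.0431). Under these 4 settings 31.6%, 41.0%, 23.6% and 43.8% of saline calls were higher, against 54.3%, and 35.1%, 46.4%, 30.6% and 51.4% of cyclophosphamide calls, against 57.3%; the median of all miRNAs moved to -0.15, -0.04, -0.37 and -0.09 in saline rats. miR-1-5p lost its saline call under the first 3 and its cyclophosphamide call under all 4. The count of called miRNAs moved from 105 in saline rats to 38 with normexp, 56 on slide 1 and 17 in the deposited value table, and from 117 in cyclophosphamide rats to 72 without scaling, 37 with normexp, 73 on slide 1 and 17 in the table, where fewer miRNAs were tested. On slide 2 alone, with 1 spermatid array per treatment, 27 miRNAs were called between treatments in spermatids and 20 for the difference of the drug effects. The normexp change of miR-126a-3p minus miR-133b-3p in cyclophosphamide rats was -0.86 and that of miR-126a-3p minus miR-1-5p was -0.57, neither called. The arms' r lost its call in pachytene arrays with total gene signal (0.637) and gained one in spermatid arrays with normexp (0.919) and the floor of 2 (0.824). The cause of these changes was not tested.

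Of 51 changes of sign, 0 were past the threshold and 18 came from leaving out 1 array. For miR-126a-3p between treatments in pachytene spermatocytes, slide 1 gave 0.66. For miR-126a-5p there, total gene signal gave 0.49, normexp 0.38 and slide 1 0.19; for miR-133b-3p normexp gave 0.41 and slide 1 0.0512; for miR-1-5p total gene signal gave 0.13, normexp 0.48 and the lowered floor 0.11. In spermatids miR-126a-5p was 0.0092 with the slide block, miR-133b-3p was 0.33 on slide 1 and 0.14 without slide 3, and miR-1-5p was 0.16 with the slide block, 0.10 on slide 1 and 0.14 with scan date. For the difference of the drug effects, miR-126a-3p was 0.50 on slide 2. miR-126a-5p was -0.99 with total gene signal, -0.63 with normexp, -0.000943 with the lowered floor, -0.19 on slide 1 and -0.21 with the floor of 2. miR-133b-3p was 0.17 with total gene signal, 0.0802 with the lowered floor, 0.28 on slide 1, 0.0164 on slide 2, 0.11 with the floor of 2 and 0.17 without slide 3. miR-1-5p was 0.17 with the slide block, 0.13 on slide 1 and 0.15 with scan date. Between saline fractions miR-126a-5p was 0.44 with normexp. Between treatments, miR-126a-3p minus miR-1-5p in spermatids was 0.0719 and miR-126a-5p minus miR-1-5p in pachytene spermatocytes 0.36 with total gene signal.

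Leaving out 1 array gave, between treatments, -0.44 to 0.0466 for miR-126a-3p and -0.0561 to 0.0159 for miR-133b-3p in pachytene spermatocytes, -0.20 to 0.0483 for miR-1-5p in spermatids, and -0.43 to 0.0625 for miR-126a-3p minus miR-1-5p in pachytene spermatocytes. The difference of the drug effects ran from -0.38 to 0.11 for miR-126a-3p, -0.24 to 0.0176 for miR-133b-3p and -0.19 to 0.0610 for miR-1-5p. The change of miR-126a-3p minus miR-1-5p between saline fractions ran from -1.32 to -0.84. With the rat number as a replicate block, 108 and 116 miRNAs were called between fractions in saline and cyclophosphamide rats and 0 in the other comparisons, and miR-126a-3p was called in saline rats (-0.76, adjusted p = 0.0404 by limma); no other member's call changed. Signals near the floor limit miR-126a-5p, miR-1-5p and pachytene miR-133b-3p.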

Other observations

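miR-499-5p and miR-208a-5p, carried within myosin heavy chain genes and known from heart and slow muscle, were not tested, because no group had them on all 5 arrays. miR-499-5p was detected on 15 of 20 arrays. Its median signal was 8.59 in saline and 7.53 in cyclophosphamide pachytene arrays, and 12.4 and 11.2 in the spermatid arrays. miR-208a-5p was detected on 8 arrays, with medians of 5.82 and 7.21 in the pachytene and 6.27 and 8.78 in the spermatid arrays, and its highest signal was 21.6. miR-3571, which lies opposite miR-1-3p over 21 bases, was detected on 0 arrays.

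No array stood apart from the other 4 of its group by Dixon's gap ratio, for the members' signals and the endothelial minus muscle differences with the floor of 2 (0 of 32 groups, where chance gives about 1 in 20). With all probes of miR-126a-3p and miR-1-5p paired in turn, 2 of 32 passed, cyclophosphamide pachytene rat 15 at 4.19 and cyclophosphamide spermatid rat 16 at 2.74, both with 1 miR-1-5p probe other than the one used.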
